A study of Arabidopsis thaliana with 6 samples.

Results

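The 6 loci described here are the 2 genes that make the microRNA miR393, MIR393A (AT2G39885) and MIR393B (AT3G55734), and the 4 auxin receptor genes whose mRNAs it targets, TIR1 (AT3G62980), AFB1 (AT4G03190), AFB2 (AT3G26810) and AFB3 (AT1G12820). They were picked by locus identifier from a table of 32420 Arabidopsis thaliana loci, and all 6 were in it. The study isolated small RNAs bound to ARGONAUTE1 (AGO1) with an AGO1 antibody from the aerial parts of untreated plants aged 20 days. It compared the triple mutant ein5 dcl4 dcl2 (alleles ein5-1, dcl4-2 and dcl2-1), the double mutant ein5 dcl4 (ein5-1 and dcl4-2) and wild type Col-0, with 2 libraries per genotype. Both mutants lack EIN5 and DCL4, and the triple mutant lacks DCL2 as well; no single mutant was among the samples, so the parts of EIN5 and DCL4 cannot be told apart. All plants had 6 days on medium and 14 days on soil.

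In plants, auxin is perceived by F-box proteins of the TIR1/AFB family, which join an SCF ubiquitin ligase and, with auxin bound, send Aux/IAA repressors to the proteasome. This frees the ARF transcription factors that the repressors hold back. miR393 pairs with the mRNAs of TIR1, AFB1, AFB2 and AFB3 and directs AGO1 to cut them, and it is known as a brake on auxin signalling in leaf development and in the response to bacterial flagellin. Because miR393 is long for a plant miRNA, the cut receptor mRNAs can be copied into double-stranded RNA and diced into secondary siRNAs. DCL4 normally does most of this dicing, and DCL2 makes longer siRNAs when DCL4 is missing. EIN5, also named XRN4, is a cytoplasmic exonuclease that degrades cut and decapped mRNA.

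The sequences below are shown because the miRNA and its sites define which transcripts miR393 can reach. They were read from the TAIR10.1 genome with its RefSeq annotation, at chr2:16652111-16652132 and chr2:16652205-16652225 for MIR393A and at chr3:20691657-20691678 and chr3:20691778-20691798 for MIR393B, all on the plus strand. Capitals mark the seed, bases 2 to 8.
miR393a-5p: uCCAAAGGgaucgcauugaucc
miR393b-5p: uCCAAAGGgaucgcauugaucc
miR393a-3p: aUCAUGCUaucucuuuggauu
miR393b-3p: aUCAUGCGaucucuuuggauu
The mature 5p strands were 22 nt long and identical, so both loci make one miRNA and one seed. The 3p strands were 21 nt long, matched at 20 of 21 positions, and differed within the seed.

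The best ungapped match to miR393-5p in each receptor mRNA lay wholly in coding sequence. The site lines run 5′ to 3′ along the mRNA, and capitals mark bases that form no Watson-Crick pair with the miRNA. The sites were at chr3:23273727-23273748 (minus strand, exon 3 of 3) in TIR1, chr4:1405341-1405362 (minus strand, exon 3 of 3) in AFB1, chr3:9870237-9870258 (plus strand, exon 3 of 3) in AFB2 and chr1:4369085-4369106 (minus strand, exon 4 of 4) in AFB3. The last line is bHLH77 (AT3G23690), a transcription factor gene outside the receptor family that is also a reported miR393 target, at chr3:8530587-8530608 (minus strand, exon 1 of 7).
TIR1 site: gAGAcaaugcgaucccuuugga
AFB1 site: gAGAcCaugcgaucccuuugga
AFB2 site: gAaAcaaugcgaucccuuugga
AFB3 site: gAaAcaaugcgaucccuuugga
bHLH77 site: ggGucaGAgcgaucccuuuggC
AFB2 and AFB3 carried the same 22 bases, with 2 unpaired. TIR1 had 3 unpaired bases, one of them a G:U pair, and AFB1 had 4, the additional one opposite miRNA base 17. In all 4 receptors the seed and the cut position (miRNA bases 10 and 11) were fully paired. Among 30614 loci with an annotated mRNA, 2 had a match with at most 2 unpaired bases, 3 with at most 3, and 8 (0.0261%) with at most 4. The receptors' closest relatives fell outside that group, with 7 unpaired bases at best in AFB4, 8 in AFB5 and 8 in the jasmonate receptor gene COI1.

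Each value counts small RNAs that map to a gene, scaled to the units of the deposited table; none is an mRNA level. The table gives no length, position or phase, so whether the small RNAs at the receptor genes are secondary siRNAs triggered by miR393 was not tested. More small RNA and better loading onto AGO1 cannot be told apart in an immunoprecipitate, nor can fewer cells of a type and less RNA per cell. For the same reason the tissue label was not checked against mRNA markers. The table gave 1 mean per genotype, from which the whole reads of its 2 libraries were recovered and named a and b. Library reads, summed over loci, were 1102996 and 843408 in ein5 dcl4 dcl2, 1292727 and 836879 in ein5 dcl4, and 1217707 and 957043 in Col-0. These sums need not be library sizes. One read was worth 1.71 and 1.9 units in ein5 dcl4 dcl2, 1.92 and 2.79 in ein5 dcl4, but 0.185 and 0.257 in Col-0, although the table held similar numbers of reads. If the units are TPM, as the deposited values were labelled, the worth of a read implies a total for each library. That total was 585370 and 526299 reads in ein5 dcl4 dcl2, 522169 and 358580 in ein5 dcl4, and 5400731 and 3896776 in Col-0. The sums were 1.88 and 1.60 times it in ein5 dcl4 dcl2, 2.48 and 2.33 in ein5 dcl4, and 0.225 and 0.246 in Col-0. Why the mutant sums exceeded it was not tested. Levels compared between genotypes therefore rest on the authors' scaling, whose total is not given in the sources used here. Ratios within a library do not. At the mutated loci, EIN5 held 0 and 0 reads in ein5 dcl4 dcl2, 0 and 1 in ein5 dcl4, and 26 and 5 in Col-0; DCL4 held 4 and 2, 4 and 8, and 0 and 4 in the same order, and DCL2 at most 2 in any library. Small RNAs at these loci do not test whether a mutation is present.

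The miR393 loci were the most read of the 6 in every ein5 dcl4 dcl2 and Col-0 library, while in ein5 dcl4 AFB2 held more reads than either. MIR393A had 740 and 576 reads (1264 and 1094 units) in ein5 dcl4 dcl2, 24 and 33 reads (46.0 and 92.0 units) in ein5 dcl4, and 1131 and 423 reads (209 and 109 units) in Col-0. The 3 genotypes did not overlap: both triple mutant libraries were the highest and both double mutant libraries the lowest. The Col-0 libraries differed 1.93-fold from each other and the ein5 dcl4 libraries 2.00-fold, so their miR393 levels carry a wide error.

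MIR393A averaged 1179 ± 120 units in ein5 dcl4 dcl2, 69.0 ± 32.6 in ein5 dcl4 and 159 ± 71.3 in Col-0 (SD, n = 2 each). MIR393B averaged 1168 ± 121, 64.7 ± 34.7 and 159 ± 70.5 units in the same order. Its reads differed from those of MIR393A by at most 6 in any library. With identical 5p strands, and 15 stretches of 21 bases shared by the hairpins, a read from one locus also matches the other. The 2 loci are thus 1 measurement, not 2, and how the authors counted such reads is not given in the sources used here.

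**Figure D1:**
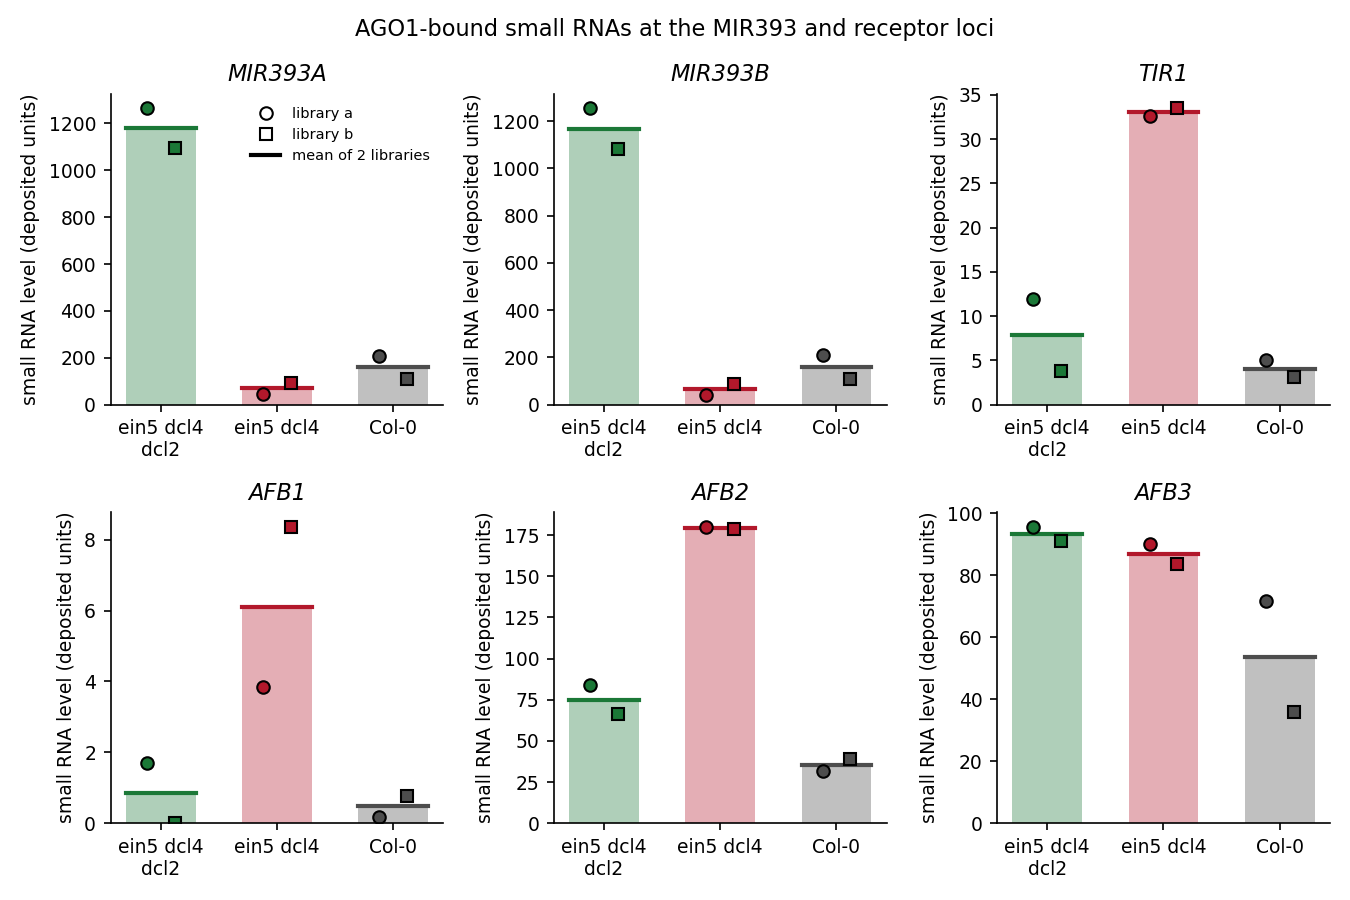
Small RNA level of each of the 6 loci in deposited units (linear axis from 0), by genotype; points are libraries a and b, bars and lines the mean of 2 libraries. MIR393A and MIR393B are highest in ein5 dcl4 dcl2 (1179 and 1168 units), AFB2 and TIR1 in ein5 dcl4 (179 and 33.0 units), and AFB3 lies close in both mutants (93.4 and 86.8 units).

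Against ein5 dcl4, both MIR393 loci rose in ein5 dcl4 dcl2. The log2 difference was 4.15 ± 0.46 (SE) for MIR393A, with a limma adjusted p of 0.00314, and 4.26 ± 0.49 for MIR393B, with 0.00335. This was the usual behaviour of miRNA loci in the table: 84.1% of the 132 tested were called higher and 1.52% lower in this comparison, with a median of 3.70. When the libraries were instead scaled to equal totals over miRNA loci, the MIR393 differences were 0.13 and 0.23 and were not called (adjusted p 0.795 and 0.658). That scaling also moved the median of all loci to -2.42, against -1.33 as deposited.

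In ein5 dcl4 against Col-0, neither MIR393 locus passed the test. MIR393A differed by -1.2 ± 0.46 (limma adjusted p 0.0883) and MIR393B by -1.31 ± 0.49 (0.0822), where 28.8% of miRNA loci were called lower and the miRNA median was -0.82. The authors' deposited table gave a log2 fold change of -1.24 with an adjusted p of 0.0255 for MIR393A, and -1.33 with 0.0171 for MIR393B, and so called both. The size also depended on the scaling: equal miRNA totals gave -0.57 for MIR393A and -0.69 for MIR393B, and equal table totals gave -4.35 and -4.45, both called. In ein5 dcl4 dcl2 against Col-0, MIR393A differed by 2.95 ± 0.46 and MIR393B by 2.94 ± 0.49, with adjusted p of 0.0682 and 0.0764 and unadjusted p of 0.00121 and 0.00165. Neither was called, in a comparison where 53.0% of miRNA loci were called higher and their median was 3.04. These differences rested on the deposited scaling, since equal miRNA totals gave -0.44 for MIR393A and -0.45 for MIR393B, and equal table totals 0.08 and 0.07.

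Within the pool of miRNA reads, the share of miR393 did not separate the genotypes. MIR393A took 0.0696% and 0.0712% of the reads at miRNA loci in ein5 dcl4 dcl2, 0.0503% and 0.0821% in ein5 dcl4, and 0.142% and 0.0648% in Col-0. The genotypes overlapped, which with 2 libraries each does not show that the share was unchanged. Its rank among miRNA loci was 36 and 37 in ein5 dcl4 dcl2, 42 and 38 in ein5 dcl4, and 35 and 38 in Col-0. The miRNA loci with reads numbered 140 and 133, 94 and 87, and 138 and 140 in the same order, so the ranks come from unequal lists. Apart from MIR393B, at a Euclidean distance of 0.16, the loci whose profile over the 6 libraries was nearest to MIR393A were other miRNA genes, MIR775, MIR447b and MIR447a, at distances of 0.76, 0.80 and 0.80 between centred log2 profiles, against a median of 4.59 over 2332 loci.

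Among the receptor genes, AFB2 and AFB3 held nearly all of the reads: 92.9% and 97.6% of the receptor reads in ein5 dcl4 dcl2, 88.1% and 86.2% in ein5 dcl4, and 95.2% and 95.1% in Col-0. Both encode functional auxin receptors, and AFB3 is known from root responses to nitrate. Per kilobase of exon, AFB3 led in ein5 dcl4 dcl2 (41.8 ± 1.41 units, against 27.5 ± 4.45 for AFB2) and AFB2 led in ein5 dcl4 (65.5 ± 0.397, against 38.9 ± 2.01 for AFB3; SD, n = 2). In Col-0 the per-kilobase levels were 24.1 ± 11.3 for AFB3 and 12.9 ± 1.95 for AFB2. AFB3 led in both Col-0 libraries (32.1 and 16.1 units, against 11.5 and 14.3), though its own 2 values lay far apart. TIR1 followed on this scale with 2.98 ± 2.18, 12.5 ± 0.243 and 1.53 ± 0.513 units per kilobase in ein5 dcl4 dcl2, ein5 dcl4 and Col-0, and AFB1 last with 0.368 ± 0.520, 2.62 ± 1.38 and 0.205 ± 0.178. TIR1 lay above AFB1 in both ein5 dcl4 dcl2 libraries, but this set only 9 reads against 1. In no library did AFB1 hold more than 3 reads.

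AFB2 had 49 and 35 reads (83.7 and 66.5 units) in ein5 dcl4 dcl2, 94 and 64 reads (180 and 178 units) in ein5 dcl4, and 170 and 152 reads (31.5 and 39.0 units) in Col-0. In units, ein5 dcl4 was highest, Col-0 lowest, and no genotypes overlapped. AFB2 rose in ein5 dcl4 against Col-0 by 2.32 ± 0.25 on the log2 scale (limma adjusted p 0.00343), and the sign turned to -0.96 when libraries were scaled to equal totals over the whole table. Without Col-0 library a its adjusted p was 0.0520.

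AFB2 fell by 1.25 ± 0.25 on the log2 scale in ein5 dcl4 dcl2 against ein5 dcl4 (limma adjusted p 0.0134) under the deposited scaling, and it was lower under each of the other 3 scalings run. Leaving out either Col-0 library or library b of the triple mutant gave adjusted p of 0.0506 to 0.0587. The triple mutant was not distinguished from Col-0 under that scaling (1.07 ± 0.25, adjusted p 0.142), while equal miRNA totals gave -2.17 (0.00489) and equal table totals -1.70 (5.10e-05), both called lower. The authors' deposited table gave AFB2 a log2 fold change of 2.35 for ein5 dcl4 over Col-0 (adjusted p 6.58e-06) and of 1.25 for ein5 dcl4 over ein5 dcl4 dcl2 (0.0465). The second names the genotypes in reverse order, so its plus sign is the same direction as the fall above.

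AFB3, whose miR393 site is the same 22 bases as that of AFB2, had 56 and 48 reads (95.7 and 91.2 units) in ein5 dcl4 dcl2, 47 and 30 reads (90.0 and 83.7 units) in ein5 dcl4, and 387 and 140 reads (71.7 and 35.9 units) in Col-0. The mutant means lay within 1.08-fold of each other, and the Col-0 libraries were 1.99-fold apart. Under the deposited scaling no comparison was called: the log2 difference was 0.76 ± 0.37 for ein5 dcl4 against Col-0 (limma adjusted p 0.160), 0.11 ± 0.37 for ein5 dcl4 dcl2 against ein5 dcl4 (0.839) and 0.87 ± 0.37 for ein5 dcl4 dcl2 against Col-0 (0.383). In the second of these, the median over protein-coding loci was -2.10, but 67.9% of those loci had passed the filter only through ein5 dcl4. Other scalings gave AFB3 calls and turned its sign: equal miRNA totals gave 1.39 (adjusted p 0.0453), -3.79 (0.00120) and -2.40 (0.0244) in the 3 comparisons, in the order above. Equal table totals gave -2.45 (2.12e-05), 0.52 (0.220) and -1.92 (0.000222).

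The reads of AFB2 and AFB3 can be set against each other within a library, which no scaling changes. AFB2 took 46.7% (exact 95% binomial interval 36.9 to 56.7) and 42.2% (31.4 to 53.5) of their joint reads in ein5 dcl4 dcl2. It took 66.7% (58.2 to 74.4) and 68.1% (57.7 to 77.3) in ein5 dcl4. In Col-0 it took 30.5% (26.7 to 34.5) and 52.1% (46.2 to 57.9). Both ein5 dcl4 libraries were above all 4 others, the intervals cover counting error only, and the 2 Col-0 libraries differed beyond theirs. In AFB2 reads per AFB3 read, ein5 dcl4 dcl2 was 2.59-fold lower than ein5 dcl4, and ein5 dcl4 was 2.99-fold above Col-0; ein5 dcl4 dcl2 and Col-0 overlapped. The exact permutation test gave p = 0.333 for each of the first pair of comparisons, the smallest that 2 libraries against 2 allow.

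**Figure D2:**
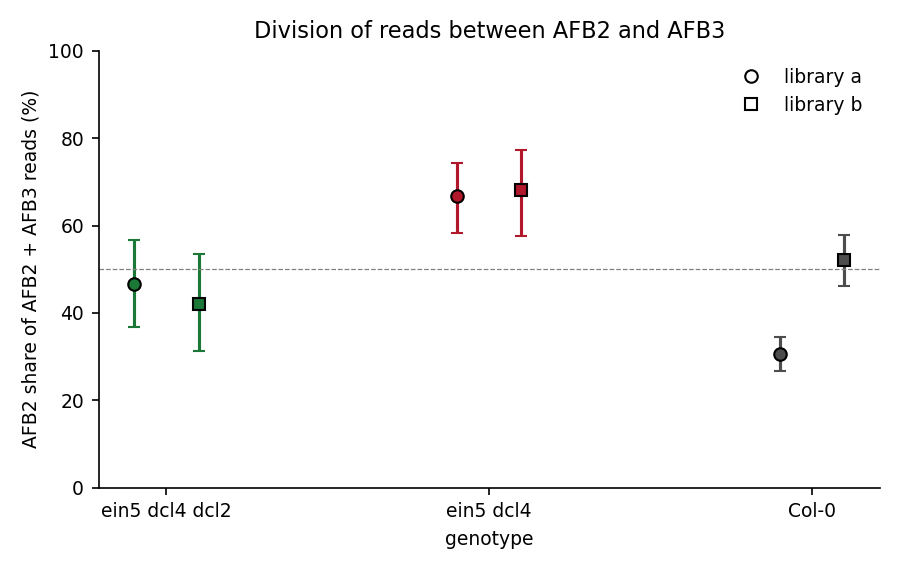
Share of AFB2 in the reads of AFB2 plus AFB3 (percent) in each library, with exact 95% binomial intervals as bars; the dashed line marks 50%. The ein5 dcl4 libraries lie at 66.7% and 68.1%, ein5 dcl4 dcl2 at 46.7% and 42.2%, and the Col-0 libraries stand apart at 30.5% and 52.1%.

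TIR1, the founding member of the receptor family, had 7 and 2 reads (12 and 3.8 units) in ein5 dcl4 dcl2, 17 and 12 reads (32.6 and 33.5 units) in ein5 dcl4, and 27 and 12 reads (5.0 and 3.08 units) in Col-0. The ein5 dcl4 libraries were highest in units, and the other genotypes overlapped. TIR1 rose in ein5 dcl4 against Col-0 by 2.78 ± 0.56 (log2; limma adjusted p 0.0147), except that equal table totals gave -0.23, and it fell by 2.11 ± 0.56 in ein5 dcl4 dcl2 against ein5 dcl4 (0.0303). With so few reads both calls were fragile. Leaving out any library of ein5 dcl4 or Col-0 gave adjusted p of 0.0879 to 0.127 in the first comparison and of 0.0809 to 0.148 in the second, where leaving out library b of the triple mutant gave 0.0615. The authors' deposited table called TIR1 for ein5 dcl4 over Col-0 (log2 3.02, adjusted p 0.0223) and not for ein5 dcl4 over ein5 dcl4 dcl2 (2.05, 0.181).

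AFB1 was close to the limit of detection. It had 1 and 0 reads in ein5 dcl4 dcl2, 2 and 3 in ein5 dcl4, and 1 and 3 in Col-0. In units these were 1.71 and 0, 3.83 and 8.37, and 0.185 and 0.770. Its higher call in ein5 dcl4 against Col-0 (limma adjusted p 0.0435) thus set 5 reads against 4 and rested on what a read was worth. Leaving out any of those 4 libraries ended it (0.0963 to 0.222), as did a pseudocount of 0.5 (0.0619), and the authors' deposited table did not call AFB1 (adjusted p 0.258). The adjusted p for ein5 dcl4 dcl2 against ein5 dcl4 was 0.0542. The upper limit behind a 0, taken as 3 reads, equalled 5.12 to 8.37 units in the mutants and 0.555 to 0.770 in Col-0. No library held more than 3 AFB1 reads, so the level of AFB1 small RNAs was not measurable at this depth in any genotype.

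Counted together, 3 of the 4 receptor genes were called higher in ein5 dcl4 against Col-0, where 38.7% of all 11376 tested loci and 55.4% of the protein-coding ones were called higher. None of the 4 was called lower, beside 6.45% of all loci and 2.39% of coding loci. The receptors' median log2 difference was 2.27, beside a coding median of 2.13. With 4 genes it is the midpoint of AFB1 and AFB2, and AFB1 set only 5 reads against 4. Of the other receptors, TIR1 differed by 2.78 and AFB3 by 0.76. In ein5 dcl4 dcl2 against ein5 dcl4, 2 of 4 were called lower, beside 35.9% of all loci and 50.6% of coding loci, and none higher, beside 4.52% of coding loci. The medians there were -1.64 for the receptors and -2.10 for coding loci. That receptor median is again the midpoint of AFB1 and AFB2, and AFB1 set 1 read against 5. Of the other receptors, TIR1 differed by -2.11 and AFB3 by 0.11. None was called in ein5 dcl4 dcl2 against Col-0, where 1.08% of all loci were called higher and 0.299% lower; AFB2 alone had an unadjusted limma p under 0.05 there (0.00748), and voom called 1 receptor higher. AFB1 passed the filter on low values only through ein5 dcl4, so its count there was not free of the filter. The coding shares and medians were not free of it either, since 67.9% of the 7827 coding loci tested entered only through ein5 dcl4. With a filter at a mean of 10 units, the all-loci median in ein5 dcl4 against Col-0 was -0.14 instead of 1.49. In ein5 dcl4 dcl2 against ein5 dcl4 it was -0.39 instead of -1.33. Under the main filter the receptor counts were near those of coding loci. AFB3 was the receptor furthest from the coding median in these 2 comparisons as deposited, and both statements rest on that filter.

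**Figure D3:**
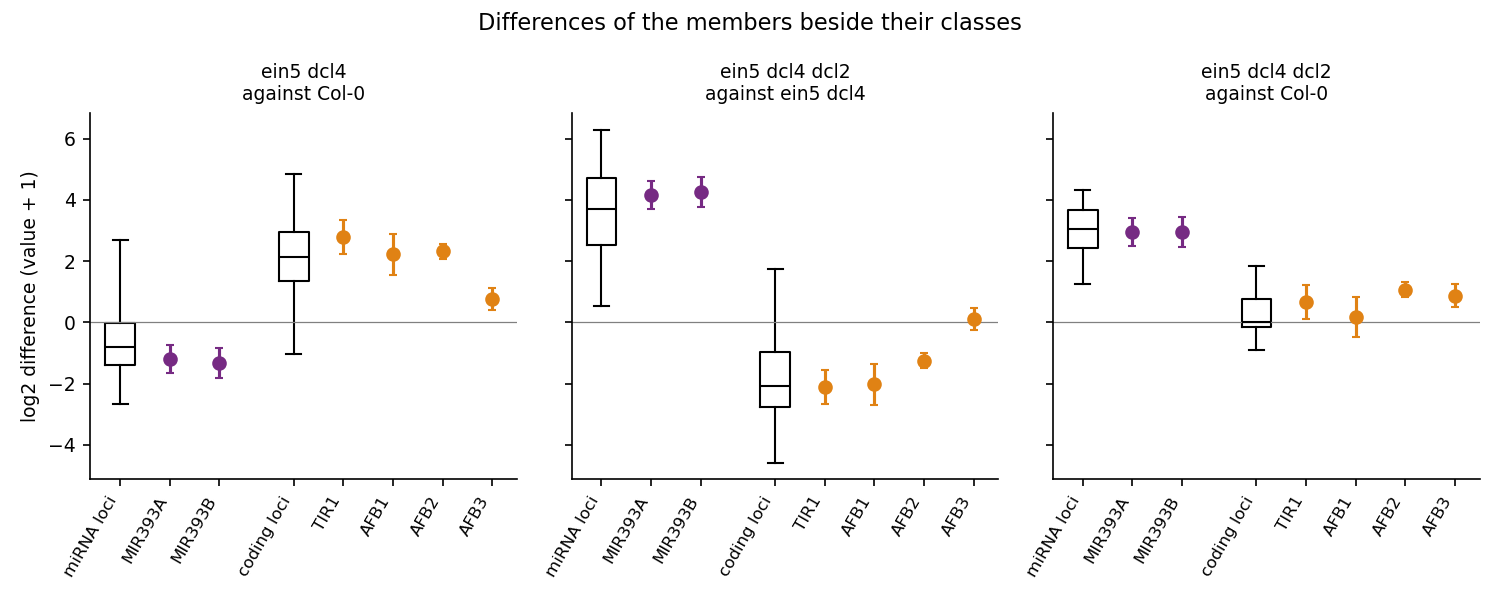
Log2 difference of each member (points, bars ± SE) in the 3 comparisons, beside boxplots of all tested miRNA loci and protein-coding loci (box: quartiles, line: median, whiskers: the 5th and 95th percentile). TIR1, AFB1 (5 reads against 4) and AFB2 lie near the coding median of 2.13 in ein5 dcl4 against Col-0. AFB3 lies at 0.76 there and at 0.11 in ein5 dcl4 dcl2 against ein5 dcl4. Of the coding loci tested, 67.9% passed the filter only through ein5 dcl4.

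Reads at the receptor genes can also be set against miR393 reads within a library, a ratio that no scaling changes. Per miR393 read (the mean of the 2 loci), the 4 receptors together had 0.153 and 0.148 reads in ein5 dcl4 dcl2, 7.11 and 3.35 in ein5 dcl4, and 0.518 and 0.725 in Col-0. In the double mutant receptor reads outnumbered miR393 reads in both libraries, and in the other genotypes they did not in any. The means were 0.151 ± 0.00352 in ein5 dcl4 dcl2, 5.23 ± 2.66 in ein5 dcl4 and 0.622 ± 0.146 in Col-0 (SD, n = 2). The ein5 dcl4 ratio exceeded the Col-0 ratio 7.97-fold. The ein5 dcl4 dcl2 ratio was 32.4-fold lower than the ein5 dcl4 ratio and 4.06-fold lower than the Col-0 ratio. No genotypes overlapped, and each exact two-sided permutation p was 0.333, the smallest possible (0.357 after Benjamini-Hochberg adjustment over 30 such ratios). This order was that of coding and miRNA loci as a whole. All coding loci together had 0.0140 and 0.0160 reads per miRNA read in ein5 dcl4 dcl2, 25.7 and 19.6 in ein5 dcl4, and 0.242 and 0.213 in Col-0. The ein5 dcl4 value of that ratio was 98.8-fold that of Col-0, a wider gap than for the receptors and miR393.

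The same order held for each receptor with enough reads. AFB2 had 0.0665 and 0.0611 reads per miR393 read in ein5 dcl4 dcl2, 4.18 and 1.97 in ein5 dcl4, and 0.151 and 0.359 in Col-0. AFB3 had 0.0760 and 0.0838, 2.09 and 0.923, and 0.343 and 0.331 in the same order. For TIR1 the values were 0.00950 and 0.00349, 0.756 and 0.369, and 0.0239 and 0.0283. In all 3 genes both ein5 dcl4 libraries lay above both Col-0 libraries, which lay above both ein5 dcl4 dcl2 libraries. Per miR393 read, AFB3 was 4.12-fold higher in ein5 dcl4 than in wild type, against 98.8-fold for coding loci per miRNA read, and 17.4-fold lower in ein5 dcl4 dcl2 than in ein5 dcl4. With AFB3 left out, the ratio of the other receptors in ein5 dcl4 was 13.3-fold that in Col-0.

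**Figure D4:**
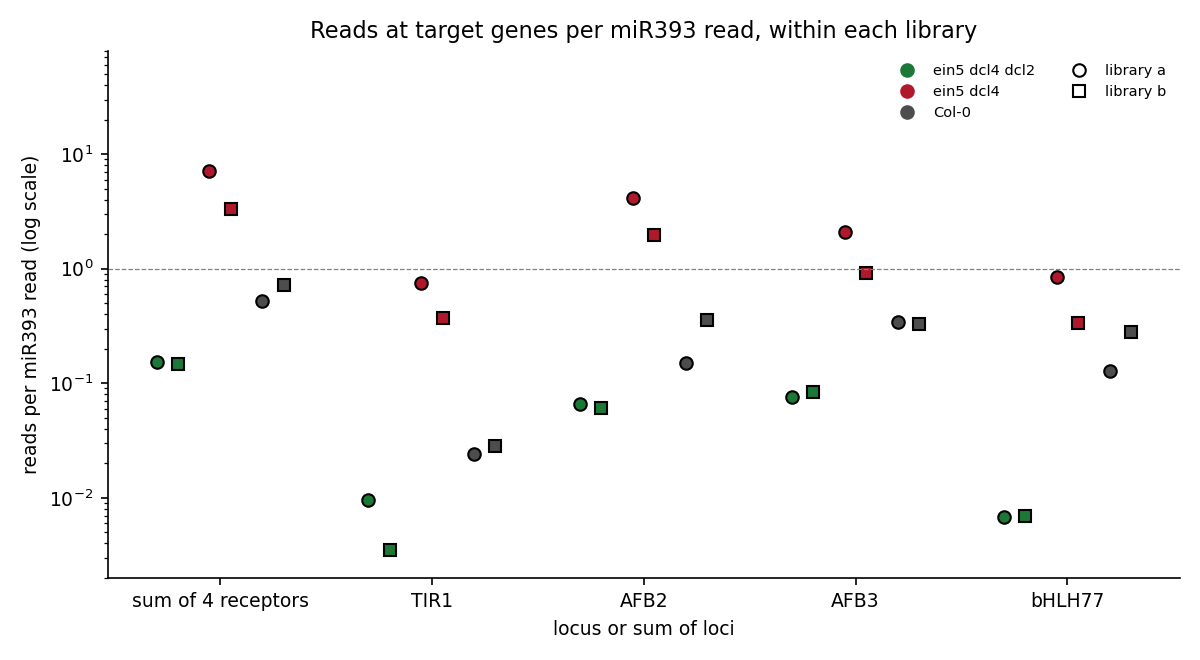
Reads at the sum of the 4 receptor genes, at TIR1, AFB2 and AFB3, and at bHLH77, per miR393 read in the same library (log axis); colours are genotypes and symbols libraries. For the receptor sum, ein5 dcl4 lies at 7.11 and 3.35, ein5 dcl4 dcl2 at 0.153 and 0.148, and Col-0 at 0.518 and 0.725.

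Against other coding loci the order was different. The receptor genes took 0.761% and 0.656% of the reads at protein-coding loci in ein5 dcl4 dcl2, 0.0130% and 0.0139% in ein5 dcl4, and 0.303% and 0.220% in Col-0. Here the double mutant was lowest and the triple mutant highest, again with no overlap. By reads among coding loci, AFB3 ranked 21 and 22 in ein5 dcl4 dcl2, 253 and 254 in ein5 dcl4, and 41 and 72 in Col-0. AFB2 ranked 26 and 28, 169 and 161, and 80 and 63 in the same order. The ranks come from lists of unequal length, with 4192 and 3773 coding loci with reads in ein5 dcl4 dcl2, 10357 and 8635 in ein5 dcl4, and 8086 and 7046 in Col-0, so they show no change by themselves.

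**Figure D5:**
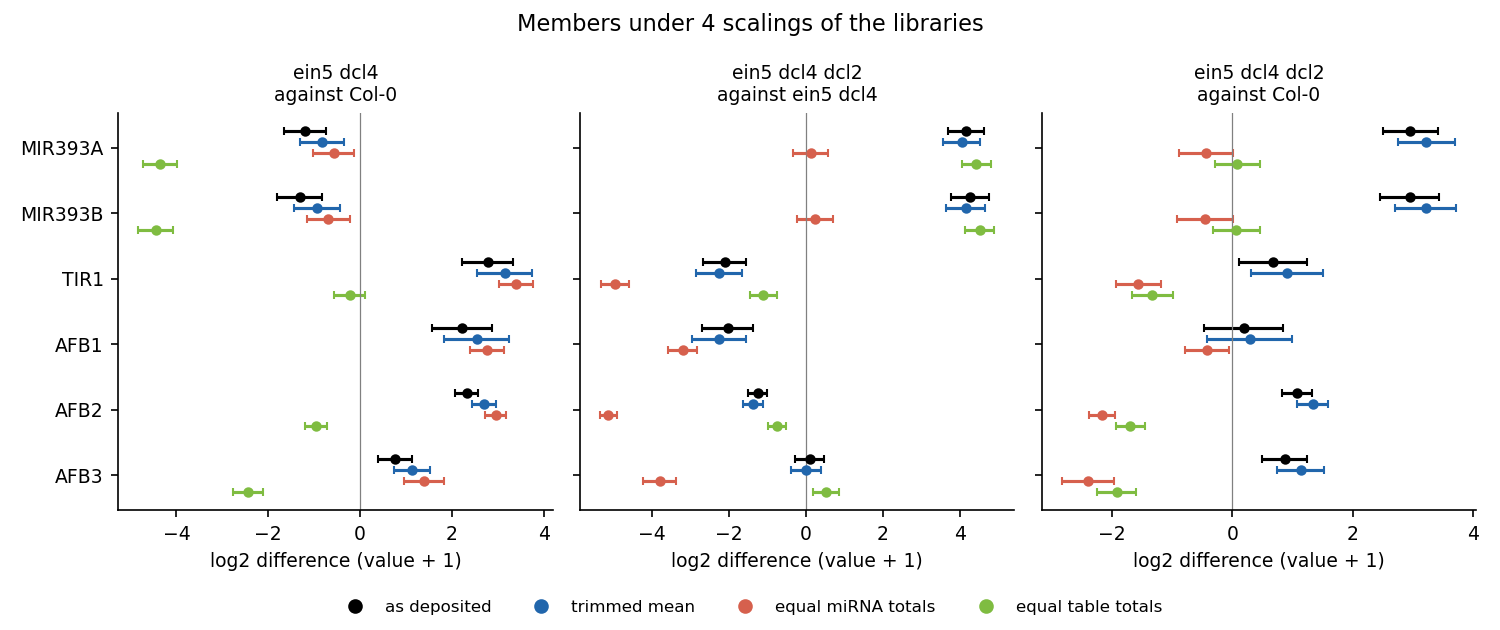
Log2 difference (bars ± SE) of the 6 members in the 3 comparisons under 4 scalings of the libraries: as deposited, by a trimmed mean, to equal totals over miRNA loci and to equal totals over the whole table. Under equal table totals the receptors in ein5 dcl4 against Col-0 lie below 0 (AFB2 -0.96, TIR1 -0.23), and under equal miRNA totals the MIR393 loci in ein5 dcl4 dcl2 against ein5 dcl4 lie near 0; AFB1 had no value under equal table totals.

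bHLH77, the reported target outside the receptor family, had 5 and 4 reads (8.07 ± 0.666 units) in ein5 dcl4 dcl2, 19 and 11 reads (33.5 ± 4.04 units) in ein5 dcl4, and 143 and 119 reads (28.5 ± 2.87 units) in Col-0. The triple mutant was lowest, though against Col-0 it was not called (-1.70 ± 0.29, limma adjusted p 0.0783). bHLH77 fell by 1.93 ± 0.29 in ein5 dcl4 dcl2 against ein5 dcl4 (log2; limma adjusted p 0.00631), while ein5 dcl4 against Col-0 was not called (0.23 ± 0.29, adjusted p 0.541). Per miR393 read it had 0.00678 and 0.00698 in ein5 dcl4 dcl2, 0.844 and 0.338 in ein5 dcl4, and 0.127 and 0.281 in Col-0, the order of the receptors. MEMB12, a Golgi SNARE gene known as a target of the 3p strand of miR393b, held 1 read in all 6 libraries together.

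Receptor relatives without a close miR393 site also held small RNAs in ein5 dcl4. AFB5, an auxin receptor gene, had 2 and 0 reads in ein5 dcl4 dcl2, 8 and 12 in ein5 dcl4, and 2 and 1 in Col-0, and was called higher in ein5 dcl4 against Col-0 (limma adjusted p 0.0144). COI1 had 0 and 0, 3 and 5, and 1 and 0 reads in the same order and was called too (0.00818), beside 55.4% of coding loci. COI1 averaged 0 units in ein5 dcl4 dcl2 and 0.0926 in Col-0. It passed the filter only through ein5 dcl4, so its call was not free of the filter. AFB4 had 1 and 0, 1 and 5, and 0 and 0 reads and was not called (0.0645). Both calls were fragile: leaving out either library of ein5 dcl4 or Col-0 ended the call of AFB5 (adjusted p up to 0.109), and leaving out either Col-0 library ended that of COI1 (up to 0.0781). In ein5 dcl4, AFB5 and COI1 held no more reads than TIR1 (17 and 12) and no fewer than AFB1 (2 and 3). In Col-0 they lay well below TIR1, which held 27 and 12 reads, while AFB1 held 1 and 3.

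Downstream in the pathway stand the Aux/IAA genes, whose products are the repressors that the receptors mark for degradation. Of 29 Aux/IAA genes 12 were tested, and 11 were called higher in ein5 dcl4 against Col-0, with none lower, beside 55.4% of coding loci called higher. Of the 12, 10 were called lower and 1 higher in ein5 dcl4 dcl2 against ein5 dcl4, beside 50.6% and 4.52% of coding loci. These counts are conditioned on the filter, since 10 of the 12 averaged under 1 unit over the 4 libraries outside ein5 dcl4, as did 67.9% of the 7827 coding loci tested, and entered only through ein5 dcl4. IAA2 had 1 and 1 reads in ein5 dcl4 dcl2, 613 and 560 in ein5 dcl4, and 1 and 0 in Col-0, more in ein5 dcl4 than the 6 members together. IAA26 had 2 and 0, 198 and 254, and 0 and 2 reads in the same order, and IAA16 had 0 and 1, 56 and 34, and 0 and 1. The double mutant libraries were the high ones at all 3 loci. Their summed reads outside ein5 dcl4 were too few for a fold change.

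For genes that act around this step, the counts stand beside 55.4% of coding loci called higher in ein5 dcl4 against Col-0 and 50.6% called lower in ein5 dcl4 dcl2 against ein5 dcl4, and no list was tested against these shares. Of 8 ARF genes targeted by miR160, miR167 or TAS3 siRNAs 7 were tested, with 3 called higher in ein5 dcl4 against Col-0 (ARF6, ARF8 and ARF17) and 4 lower in ein5 dcl4 dcl2 against ein5 dcl4. Of the 7, 2 had entered only through ein5 dcl4, ARF8 among them. ARF6, an activator in flower development, had 2 and 0 reads in ein5 dcl4 dcl2, 21 and 22 in ein5 dcl4, and 7 and 12 in Col-0. ARF4, a target of TAS3 siRNAs, had 2 and 1, 7 and 2, and 50 and 57 reads and passed no test (log2 difference of -0.38 ± 0.53 for ein5 dcl4 against Col-0, limma adjusted p 0.582). Of 7 other ARF genes 4 were tested, with 3 called higher in ein5 dcl4 and 3 lower in ein5 dcl4 dcl2 against it, and all 4 had entered only through ein5 dcl4. Among 10 genes of auxin synthesis and transport, 6 were tested, 4 were called higher in ein5 dcl4 against Col-0 and 4 lower in ein5 dcl4 dcl2 against ein5 dcl4; 4 had entered only through ein5 dcl4. PIN3, an auxin efflux carrier, led them with 1 and 0 reads in ein5 dcl4 dcl2, 31 and 30 in ein5 dcl4, and 6 and 8 in Col-0. Of 7 SCF subunits and regulators 2 were tested. ASK1, the adaptor that holds the receptors in the ligase, had 2 and 1 reads in ein5 dcl4 and none elsewhere, too few for its call to say more than that.

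Other miRNAs known to trigger secondary siRNAs and their targets gave a comparison for the miR393 pair. Of 7 such miRNA loci 6 were tested, and 5 were called higher in ein5 dcl4 dcl2 against ein5 dcl4, beside 84.1% of all tested miRNA loci. All 6 were called higher in ein5 dcl4 dcl2 against Col-0, beside 53.0%, a comparison where neither MIR393 locus was called. In ein5 dcl4 against Col-0, 1 of these loci was called higher (MIR828) and 1 lower (MIR173), beside 12.1% and 28.8%. Of 8 of their protein-coding targets 7 were tested: 3 were called higher in ein5 dcl4 against Col-0 (AGO2, AT1G12290 and AT5G43740), but 3 pentatricopeptide repeat genes (AT1G62910, AT1G63080 and AT1G63130) were called lower, beside 55.4% and 2.39% of coding loci. In ein5 dcl4 dcl2 against ein5 dcl4, 5 were called lower and none higher, beside 50.6% and 4.52% of coding loci. In ein5 dcl4 dcl2 against Col-0, the same 3 repeat genes were called lower and no target higher, beside 0.345% and 0.46% of coding loci. Of the 7 targets tested, 1 had entered only through ein5 dcl4. No receptor gene was called lower in ein5 dcl4 under the deposited scaling, as those repeat genes were. The TAS loci were not analysed here.

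The profiles of the receptors were not most like each other. The locus nearest to AFB2 was RPP4 (AT4G16860), a disease resistance gene, at a distance of 0.29, followed by RBCS1A, a subunit of Rubisco, at 0.35. TIR1 lay nearest to the plastid locus ATCG01050, at 0.63, and to RPP5 (AT4G16950), another disease resistance gene, at 0.81. AFB3 lay nearest to 3 pseudogenes, AT1G34610, AT4G06591 and AT2G13335, at 0.73 to 0.82. Between members, AFB2 and TIR1 were 1.31 apart, AFB2 and AFB3 1.93, and TIR1 and AFB3 2.65, and MIR393A was 4.12 to 6.44 from these 3. These distances come from 6 libraries and share their scaling, and AFB1 had too few reads to enter.

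By sequence, most of each receptor gene was its own. Read positions are not given, so how many reads at these genes match elsewhere was not tested. Of the exonic stretches of 21 bases, 0.875% in TIR1, 0.130% in AFB1, 1.73% in AFB2 and 1.45% in AFB3 occurred elsewhere in the genome. AFB2 and AFB3 shared 34 such stretches, TIR1 and AFB2 6, and TIR1 and AFB3 3. No receptor shared one with a MIR393 locus. AFB1 overlaps AT4G03180 and the lncRNA AT4G04455, and AFB3 overlaps AT1G12810 and the lncRNA AT1G04977, all on the opposite strand. Whether the counting used strand is not given in the sources used here, so reads of these pairs cannot be told apart.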

How the data were processed

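AGO1-bound small RNA libraries of 3 genotypes, 2 per genotype and called biological replicates in the design text, were deposited by the authors as 1 table of loci. The submitters' processing notes name DESeq2, SAMtools 1.9, Bowtie 1.2.2 and the TAIR10 build without roles; per the labels, read 1 alone entered the analysis. The authors' deposited signal per locus is a genotype mean, called TPM per the file headers, but the columns sum to 1743399 (ein5 dcl4 dcl2), 2404778 (ein5 dcl4) and 235535 (Col-0). The authors also deposited log2 fold changes and p-values (raw and adjusted) for ein5 dcl4 over Col-0 and over ein5 dcl4 dcl2.

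From these values, whole reads of both libraries were recovered for 100% of values above 0 (relative tolerance 1e-14; the next best solution missed by at least 1.0e-12). Letters a and b are not tied to replicate numbers. Both libraries of each genotype differed by more than sampling noise (chi-square per degree of freedom 5.82, 5.26 and 3.18 in ein5 dcl4 dcl2, ein5 dcl4 and Col-0) and were counted as 2 samples. p-values measure the spread between these samples.

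The 11376 loci averaging 1 unit or more were tested on log2(value + 1) by limma 3.58.1 (R 4.3.3), trended prior, all 6 libraries, 3 residual degrees of freedom, two-sided, Benjamini-Hochberg over all loci tested, called at an adjusted p under 0.05. Fold changes on this scale understate low loci. A locus with 3 or fewer reads in a genotype gets reads, not a fold. The fit was also run on simulated reads in which only a small set of loci changed. In these data whole classes shifted, so that run is no check on the calls here. Reads carry no molecular identifiers, so intervals and floors cover counting error only.

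Names and sites came from the TAIR10.1 RefSeq annotation (31722 of 32420 loci matched); the table gives no coordinates. Members, gene lists and tests were chosen with earlier results of these data known. Named genes were the members, AFB4, AFB5, COI1, bHLH77 and MEMB12, up to 3 loci per list with the largest mean, and the 3 loci nearest to each member with at least 10 reads per library on average; others named in lists of calls were added after their values were seen. Alternatives were other scalings, pseudocounts, filters, prior, voom, 2-genotype fits and leaving out each library.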

Additional observations from a re-analysis of the deposited data

How the results depend on the processing

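The ratios of receptor to miR393 reads cannot change with scaling, pseudocount or filter. As no genotypes overlapped, leaving out 1 library could not turn their sign either, so the kept sign is no check. Their size moved: leaving out 1 library gave log2 differences of 2.45 to 3.54 (ein5 dcl4 against Col-0), -5.56 to -4.47 (ein5 dcl4 dcl2 against ein5 dcl4) and -2.27 to -1.78 (ein5 dcl4 dcl2 against Col-0). Levels depended on the scaling. In ein5 dcl4 against Col-0, equal table totals gave TIR1 -0.23, AFB2 -0.96 and AFB3 -2.45, with 0 receptors called higher and 2 lower, and 2 MIR393 loci called lower, as voom also called 2. In ein5 dcl4 dcl2 against ein5 dcl4, trimmed-mean scaling gave AFB3 -0.0055 and equal miRNA totals -3.79, with 4 receptors called lower and 0 MIR393 loci called higher; 1 receptor was called lower with no filter and 0 with only these 2 genotypes. In ein5 dcl4 dcl2 against Col-0, equal miRNA totals gave MIR393A -0.44, MIR393B -0.45, TIR1 -1.56, AFB1 -0.42, AFB2 -2.17 and AFB3 -2.40 (2 receptors called lower), and equal table totals TIR1 -1.33, AFB2 -1.70 and AFB3 -1.92 (3 lower). There a filter at a mean of 10 and voom each called 1 receptor and 2 MIR393 loci higher, and fitting only these 2 genotypes called 2 MIR393 loci. Equal table totals and the filter at 10 test fewer loci; the other causes were not tested. AFB1 had no value under either.

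Leaving out 1 library gave 0 to 3 receptors called higher in ein5 dcl4 against Col-0, 0 to 3 called lower in ein5 dcl4 dcl2 against ein5 dcl4, and 2 MIR393 loci called higher there each time. In ein5 dcl4 dcl2 against Col-0 it gave TIR1 -0.044 to 1.39 and AFB1 -0.53 to 0.90, neither called. Over the whole table, ein5 dcl4 against Col-0 had 4401 higher and 734 lower calls; equal table totals gave 605 and 3162, the filter at 10 gave 647 and 305, voom 6826 higher, and leaving out 1 library 767 to 4338 and 33 to 887. ein5 dcl4 dcl2 against ein5 dcl4 had 1288 and 4087; equal miRNA totals gave 124 and 7775, equal table totals 764 lower, the filter at 10 gave 343 and 703, voom 843 higher, the 2-genotype fit 607 and 2103, and leaving out 1 library 609 to 1219 and 2137 to 3311. ein5 dcl4 dcl2 against Col-0 had 123 and 34; equal miRNA totals gave 4 and 1784, equal table totals 57 and 3014, no filter 72 and 20, the filter at 10 gave 278 and 114, no trend 16 and 12, voom 4803 and 275, the 2-genotype fit 311 and 108, and leaving out 1 library 0 to 81 and 0 to 57.

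Over single loci, 17 values changed sign whether called or not, 26 lost their call, 17 gained one and 232 did neither. No paired analysis was possible because the deposited columns are genotype means and nothing ties their libraries to replicate numbers. Depth limits AFB1 and TIR1, which held at most 3 and 27 reads in a library.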

Other observations

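Among loci with an mRNA match of at most 4 unpaired bases to miR393-5p, 3 are neither receptors nor bHLH77. AT5G45100 (BRG1), a RING-type ubiquitin ligase gene, had 2 of its unpaired bases in the seed. It held 4 reads in ein5 dcl4 dcl2, 85 in ein5 dcl4 and 7 in Col-0, summed over 2 libraries, and its log2 difference for ein5 dcl4 against Col-0 was 5.79 ± 1.01 (limma adjusted p 0.0107). Leaving out either library of ein5 dcl4 or Col-0 ended that call (adjusted p up to 0.0892), and equal table totals gave 2.57. AT2G33540 (CPL3), a phosphatase gene, held 1, 9 and 6 reads in the same order, and AT4G18596 held none. These loci were picked by sequence, and their reads were not examined for position or phase.

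IAA3, an Aux/IAA repressor known from root growth, was the 1 gene of its list called higher in ein5 dcl4 dcl2 against ein5 dcl4. It had 22 and 20 reads in ein5 dcl4 dcl2, 10 and 5 in ein5 dcl4, and 8 and 7 in Col-0, and it was called higher in ein5 dcl4 dcl2 against Col-0 as well. It was named after its values were seen.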
